A study of Glycine soja and Glycine max with 13 samples.

Results

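Seeds of 6 cultivated soybean lines were set against each other according to how far the transcripts of the storage protein glycinin had accumulated. The classes were chosen by a measured value, the CPM (read counts of a gene scaled to one common library total) of one glycinin gene, Glyma.03G163500, in each line. Lines above 300 CPM are called advanced (df12, df17 and df43) and lines below it early (df3, df36 and df14), so 6 of the 13 lines of the series were used, 3 in each class. All 6 are cultivated soybean (Glycine max), grown in fields, with seeds taken 13 days after flowering. The other 7 lines of the series are wild soybean (Glycine soja), of the same tissue and day, and served here as lines that the split did not use. The labels name no treatment, no collection time and no batch, and the number of plants behind a sample is not given in them. Each sample is another line, so the class of a line and its genotype cannot be told apart. The classes were made from a measured value, so differences between them are given as a description without a test, and the glycinin and β-conglycinin genes are left out of all counts.

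Soybean seeds first grow by cell division and then fill with protein and oil. Filling is driven by regulators of the LEC1, ABI3 and FUS3 type, which act in the embryo on genes of storage proteins and of oil synthesis. Besides the globulins, the filling embryo makes lipoxygenases, Kunitz trypsin inhibitors, lectin and a thiol protease-like allergen, P34. The seed coat around it passes sugar to the embryo and makes the flavonoid pigments. Lines harvested on one day after flowering need not have reached the same point of this course.

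Glyma.03G163500 stood at 13103 CPM in df12, 1066 CPM in df17 and 524 CPM in df43, against 144 CPM in df3, 11.9 CPM in df36 and 0.983 CPM in df14. The nearest lines on either side of the threshold were thus df43 and df3, and the lines formed a series rather than 2 tight classes. From here on CPM are also scaled by TMM factors, which correct for differences in composition between libraries. Of 13 listed globulin identifiers 10 were among the counted features, and their summed CPM followed the same order of lines. The sum was 38546, 12884 and 3257 CPM in df12, df17 and df43, against 1648, 484 and 113 CPM in df3, df36 and df14. It includes Glyma.20G148300 and Glyma.20G148400, which had near-identical values (6572 and 6566 CPM in df12) and may share reads. Of the 10 genes 1, Glyma.03G163300, was lower on average in advanced lines (3.16 against 4.17 CPM).

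The 6 libraries held 12668664 to 26044036 counts, and 3 counts, taken as the detection limit of a library, stood for 0.129 to 0.243 CPM. This limit covers counting error only. Over all tested genes the lines did not fall into the advanced and early classes. The Pearson correlation of log2 CPM across genes averaged 0.898 between advanced lines (3 pairs), 0.908 between early lines (3 pairs) and 0.893 between the classes (9 pairs). Advanced df17 was most like early df3 (0.936), and advanced df43 was more like early df36 (0.906) and df14 (0.904) than like df12 (0.886) or df17 (0.884). On the leading principal component (37.5% of variance) df12, df17 and df43 scored 74.7, 65.3 and -34.9, against 38.0, -101 and -41.9 for df3, df36 and df14. The word advanced therefore describes the storage transcripts of df43 and not its transcriptome as a whole.

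Of 31410 tested genes outside the globulins, 507 were higher in every advanced line than in every early line by at least 2-fold on average, which is 1.61% of the genes, and 507 were lower in the same sense, again 1.61% and in both directions together 3.23%. Without a minimum size, 4.88% of the genes were higher and 4.99% lower in every advanced line. An arbitrary split of the same lines into equal classes would give about as many, if every order of lines were equally likely. The number of such genes alone therefore does not tie them to seed filling. Differences are of mean log2 CPM, advanced minus early. The median difference was 1.48 among the higher genes, -1.37 among the lower genes and -0.01 over all genes. A difference of at least 4-fold was held by 122 of the higher and 97 of the lower genes. Among the 507 higher genes df12 was the highest line for 326, df43 for 110 and df17 for 71. The early line closest to the advanced ones was df3 for 230 of them, df36 for 158 and df14 for 119. Among the 507 lower genes the highest early line was df36 for 224, df14 for 192 and df3 for 91. The counts depended on which line was left out, and the rule is also easier to meet with fewer lines. Higher and lower genes numbered 511 and 614 without df12, and 648 and 596 without df14. There were 911 higher genes without df17, 841 without df36, 1262 without df3 and 1218 without df43. There were 981 lower genes without df17, 705 without df36, 1352 without df3 and 1243 without df43.

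The count table does not pair identifiers with names, and 0 of its identifiers matched the RefSeq gene table of Glycine soja (assembly ASM419377v2). Gene names below are those under which the identifiers have been published, as recalled from publications, and no annotation was at hand to test them. Near-identical copies may share reads, because no source used here says how reads matching several genes were handled.

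The seed protein genes outside the globulins were all higher in advanced seeds. All 8 of 8 listed genes were higher in every advanced line by at least 2-fold, beside 1.61% of all genes, with a median difference of 4.54 on the log2 scale. They were measured in the same lines that made the split, so this count is a description. Summed over the 8 genes, transcripts reached 17751, 3772 and 2306 CPM in df12, df17 and df43, against 1119.9, 1278 and 249.6 CPM in df3, df36 and df14. In bulk seeds, more cells that express a gene and more RNA of it per cell cannot be told apart.

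KTI3 (Glyma.08G341500), the main Kunitz trypsin inhibitor gene of the seed, was the most abundant of the 8, at 7225, 2103 and 1564 CPM in advanced df12, df17 and df43, against 722, 989.7 and 205 CPM in early df3, df36 and df14. The gap between df43 and df36 was narrow, and the fold between the class means on the log scale was 5.45. Its difference of 2.45 on the log2 scale was 1.78 without df12 and 1.77 without df14. Its relative KTI1 (Glyma.01G095000) stood at 426, 76.3 and 29.2 CPM in the advanced lines, against 11.3, 6.64 and 1.19 CPM in the early lines. Lectin (LE1, Glyma.02G012600), a carbohydrate-binding seed protein, had 3246, 677 and 326 CPM in df12, df17 and df43, against 303, 233 and 31.5 CPM in df3, df36 and df14. For lectin df43 and df3 were almost level, with df12 and df17 well above them and df14 well below. Its difference of 2.78 was 1.85 without df12, 1.75 without df14, 3.38 without df3 and 3.50 without df43, and that of KTI1, 4.40, was 3.35, 3.48, 5.06 and 5.28 without the same lines.

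P34 (Glyma.08G116300), the thiol protease-like allergen, had the widest difference of the 8, 6.84 on the log2 scale or 115-fold. It stood at 3197, 391 and 114 CPM in df12, df17 and df43, against 36.7, 4.74 and 0.414 CPM in df3, df36 and df14. The 6 lines took the same order for P34 as for glycinin. The size of its difference rested on single lines, at 5.54 without df12, 5.29 without df14, 8.36 without df3 and 7.94 without df43. The sucrose-binding protein gene (SBP, Glyma.10G028300), a vicilin relative, stood at 1929, 368 and 202 CPM in the advanced lines, against 35.9, 40.7 and 5.69 CPM in the early lines. Its difference of 4.68 was 3.74 without df12, 3.77 without df14 and 5.37 without df43.

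The 3 seed lipoxygenase genes, whose enzymes oxidise linoleic and linolenic acid, were all higher in the advanced lines, with differences of 4.13 for LOX1, 5.87 for LOX2 and 5.39 for LOX3 on the log2 scale. LOX2 (Glyma.13G347500) had 951, 62.4 and 39.1 CPM in df12, df17 and df43, against 2.91, 1.98 and 1.71 CPM in df3, df36 and df14. LOX3 (Glyma.15G026300) had 728, 91.0 and 30.3 CPM in the advanced lines, against 8.58, 0.733 and 3.57 CPM in the early lines. LOX1 (Glyma.13G347600) was the least abundant, at 49.7, 2.75 and 1.13 CPM in df12, df17 and df43, against 0.162, 0.259 and 0.207 CPM in df3, df36 and df14, where the early values are close to the limit set by 3 counts. Line df12 held far more of all 3 than df17 or df43 did. Without df12 the differences were 2.57 for LOX1, 4.45 for LOX2 and 4.13 for LOX3, and without df43 they were 5.23, 6.75 and 6.42. That of LOX3 was also 4.48 without df36 and 6.16 without df3.

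**Figure D1:**
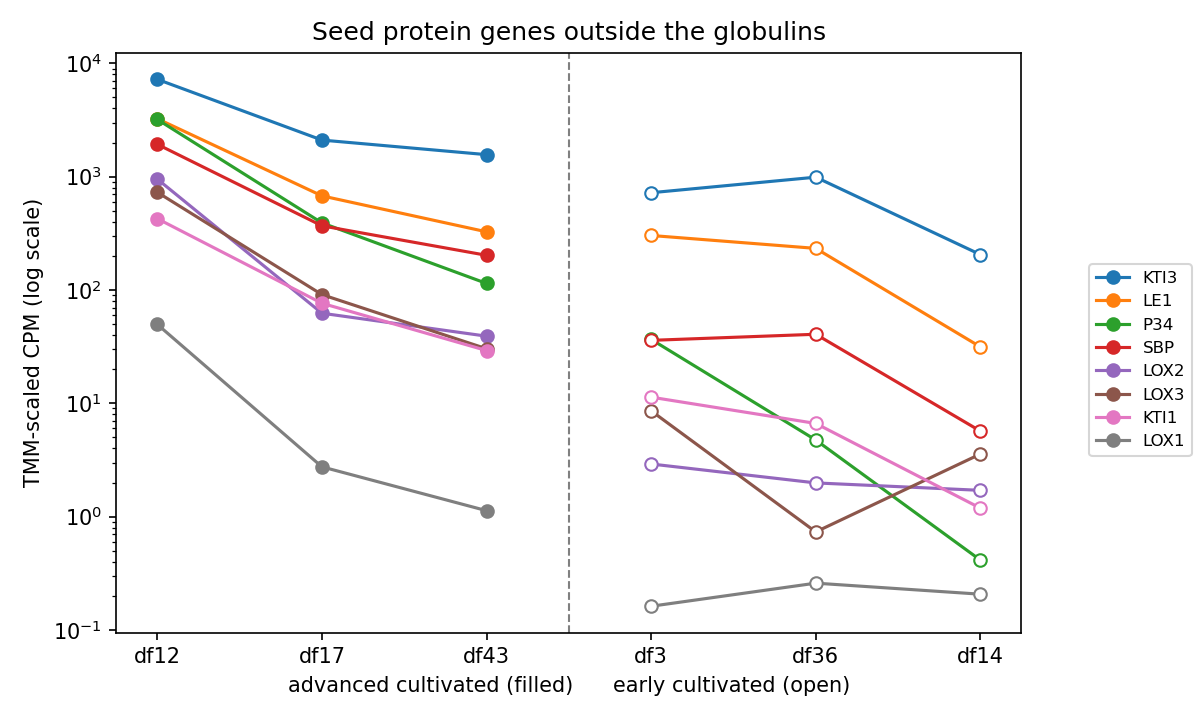
TMM-scaled CPM (log axis) of the 8 seed protein genes outside the globulins in each cultivated line, with advanced lines filled and left of the dashed line and early lines open; each line joins the values of one gene. Every gene is above its early values in all 3 advanced lines, df12 is the highest line for all 8, and KTI3 and lectin leave the narrowest gap between df43 and the early lines.

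The same relation was tested in the 7 wild lines. Each gene was fitted with edgeR against the log10 of glycinin CPM in the wild lines alone, and the slope is the log2 change per 10-fold higher glycinin. As CPM of the column sum, glycinin stood between 1434 and 11758 in ys1, ys23, ys26 and ys17 and between 6.01 and 7.17 CPM in ys34, ys29 and ys16, so the slope mostly sets 4 lines against 3. By edgeR's quasi-likelihood test with Benjamini-Hochberg adjustment at 0.05, 354 genes (1.13%) rose and 89 genes (0.283%) fell with glycinin, together 1.41%. Each sample was another line, so p-values measure the spread between lines.

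Of the 507 genes higher in advanced cultivated seeds, 90 or 17.8% also rose with glycinin in wild seeds and 0 fell, and these 90 were 25.4% of the 354 rising genes. Of the 507 lower genes, 7 or 1.38% also fell in wild seeds and 1 rose, and these 7 were 7.87% of the 89 falling genes. Slopes were positive for 430 of the 507 higher genes (84.8%) and for 49.8% of all tested genes. They were negative for 386 of the 507 lower genes (76.1%) and for 50.2% of all tested genes. These counts rested on single wild lines. There were 70 rising and 4 falling genes without ys1, 115 and 9 without ys23, 71 and 4 without ys29, 102 and 10 without ys34, and 641 and 208 without ys16. The 90 shared higher genes became 39, 54, 36 and 46 without ys1, ys23, ys29 and ys34 in that order, and 199 without cultivated df43. The 7 shared lower genes became 0 without ys1, ys23 or ys29, 1 without ys34, 15 without ys16 or df36, 19 without df3 and 34 without df43.

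All 8 seed protein genes outside the globulins rose with glycinin in wild seeds by edgeR, beside 1.13% of all tested genes. The list was chosen with earlier results of these data known. Lectin had 3.08 as its slope (SE 0.204, edgeR adjusted p = 0.000396), P34 3.01 (SE 0.164, edgeR adjusted p = 0.00024) and the sucrose-binding protein gene 2.78 (SE 0.149, edgeR adjusted p = 0.00024). The lowest slope of the 8 was that of KTI3, 1.56 (SE 0.219, edgeR adjusted p = 0.0204). Wild seeds held 61.9 to 5172 (median 1695) CPM of KTI3, with all 4 lines of high glycinin above all 3 of low glycinin. The call of KTI3 was lost without ys1, ys23 or ys29 (edgeR adjusted p of 0.076, 0.0524 and 0.115), and that of LOX2 without ys29 or ys34 (0.0751 and 0.0672). The call of KTI1 was lost without ys16, ys23, ys26, ys29 or ys34 (adjusted p by edgeR of 0.0566, 0.0707, 0.0512, 0.116 and 0.151). The calls of lectin, P34, the sucrose-binding protein gene, LOX1 and LOX3 held whichever wild line was left out. With limma voom the calls of LOX1, LOX2 and KTI1 were lost (adjusted p of 0.0859, 0.0743 and 0.139), and with the wild lines split at 300 CPM that of KTI1 was lost (adjusted p by edgeR of 0.0586).

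**Figure D2:**
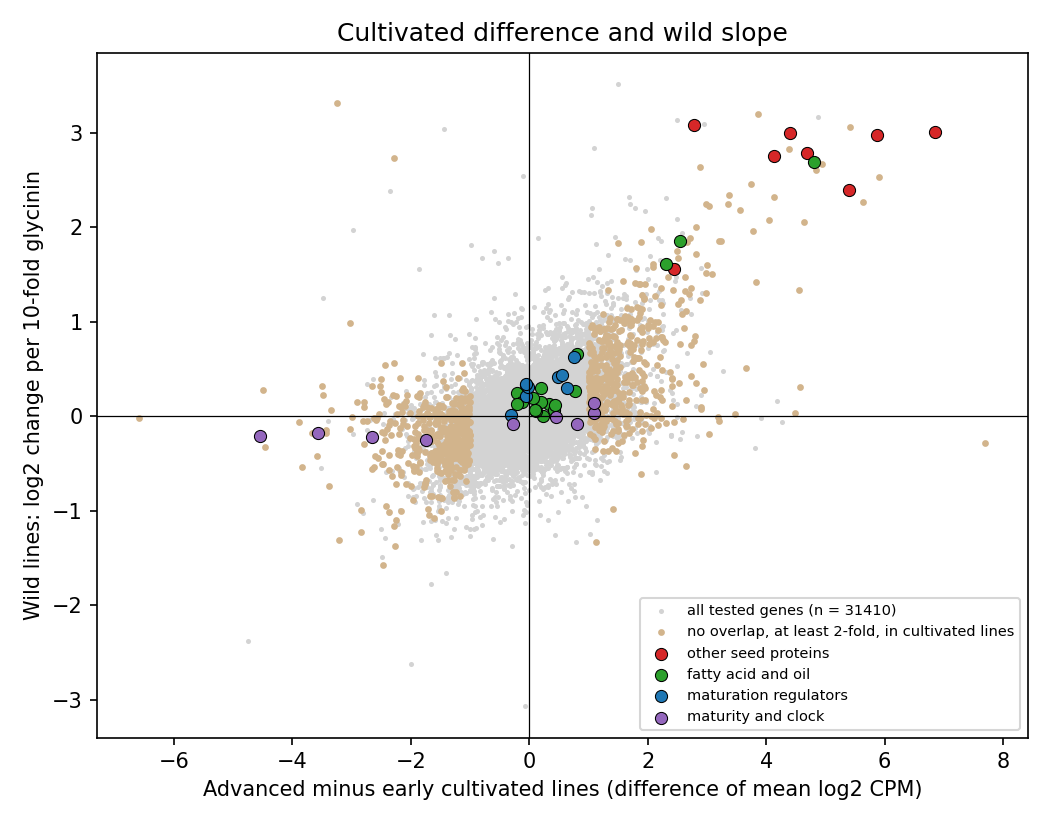
Each point is a tested gene: the x axis gives the difference of mean log2 CPM, advanced minus early cultivated lines, and the y axis the log2 change per 10-fold glycinin in wild lines. The 8 seed protein genes lie at the upper right, with differences of 2.45 to 6.84 and slopes of 1.56 to 3.08, whereas the clock genes at the far left have slopes near 0.

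Regulators of maturation showed no such gap. Of 9 listed genes 0 were higher or lower in every advanced line, beside 4.88% of all genes higher and 4.99% lower at any size. With so few genes, 0 of 9 does not set the list apart from those shares. The median difference of the 9 was -0.02 on the log2 scale. LEC1-1 (Glyma.07G268100), one of a pair of LEC1 genes that act early in the embryo, stood at 96.0, 91.7 and 76.2 CPM in df12, df17 and df43, against 63.1, 160.4 and 74.2 CPM in df3, df36 and df14. The highest line was the early line df36, for LEC1-1 and for LEC1-2 (Glyma.17G005600) alike. ABI3-2 (Glyma.08G357600), of the ABI3 type that activates storage protein genes, had 149, 144 and 49.9 CPM in the advanced lines, against 111, 53.6 and 57.5 CPM in the early lines. Lines df12, df17 and df3 were high and df43, df36 and df14 low for it. This also held for ABI3-1 (Glyma.18G176100), at 114, 88.7 and 40.6 CPM against 75.3, 46.6 and 42.2 CPM in the same order of lines. In wild seeds every line of high glycinin held more of both ABI3 genes than every line of low glycinin. Their slopes missed the threshold, at 0.43 for ABI3-2 (SE 0.0953, edgeR adjusted p = 0.0677) and 0.42 for ABI3-1 (SE 0.118, edgeR adjusted p = 0.137). FUS3-1 (Glyma.16G050500) stood at 55.9, 69.6 and 29.1 CPM in df12, df17 and df43, against 71.0, 48.6 and 62.9 CPM in df3, df36 and df14, so that its lowest line was the advanced df43.

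The WRI1 genes, whose products switch on fatty acid synthesis, overlapped fully between the classes. WRI1a (Glyma.15G221600) stood at 29.7, 24.2 and 13.9 CPM in df12, df17 and df43, against 24.4, 28.6 and 14.8 CPM in df3, df36 and df14. WRI1b (Glyma.08G227700) had a difference of -0.06 on the log2 scale, and bZIP67-1 (Glyma.13G317000) one of 0.64. ZF351 (Glyma.06G290100), a zinc finger gene linked to oil accumulation, had 30.2, 16.7 and 3.39 CPM in df12, df17 and df43, against 5.26, 12.7 and 5.38 CPM in df3, df36 and df14, with df43 the lowest of the 6 lines. It was the 1 regulator of 9 that passed as rising with glycinin in wild seeds, beside 1.13% of all genes. Its slope was 0.62 (SE 0.0667, edgeR adjusted p = 0.00533), and the call held whichever wild line was left out. The median wild slope of the 9 regulators was 0.33.

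Among 17 tested genes of fatty acid and oil synthesis, 1 was higher in every advanced line by at least 2-fold and 0 were lower, beside 1.61% of all genes in each direction. That gene was OLEO1 (Glyma.20G196600), which encodes an oil body coat protein. It stood at 5.11, 24.8 and 7.15 CPM in df12, df17 and df43, against 0.243, 0.949 and 0 CPM in df3, df36 and df14. Lines df3 and df14 were at or below the limit of 3 counts, df36 lay above it, and the highest line was df17, not df12. Its difference of 4.81 was 3.99 without df14, 4.13 without df17 and 5.59 without df36. In wild seeds its slope of 2.68 missed the threshold (SE 0.526, edgeR adjusted p = 0.0513), and without ys23, which held 1.01 CPM at a high glycinin level, it passed (edgeR adjusted p = 0.002). Leaving out any other single wild line, it missed the threshold (edgeR adjusted p of 0.0616 to 0.2). It also missed with limma voom (adjusted p of 0.653) and passed with DESeq2 (adjusted p of 2.23e-06).

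The seed-type FAD2 genes, which make linoleic from oleic acid, were highest in df12 and df17 but overlapped between the classes because of df43 and df3. FAD2-1B (Glyma.20G111000) had 906, 418 and 126 CPM in df12, df17 and df43, against 179, 67.2 and 32.3 CPM in df3, df36 and df14. FAD2-1A (Glyma.10G278000) had 119, 55.9 and 10.2 CPM in the advanced lines, against 24.3, 5.82 and 2.27 CPM in the early lines. Early df3 thus held more of both than advanced df43 did. Both rose with glycinin in wild seeds, FAD2-1A with a slope of 1.85 (SE 0.162, edgeR adjusted p = 0.00159) and FAD2-1B with one of 1.61 (SE 0.199, edgeR adjusted p = 0.0118), and both calls held whichever wild line was left out. The FAD2-2 genes, which are expressed throughout the plant, had differences of -0.21 for FAD2-2B (Glyma.19G147400) and 0.33 for FAD2-2C (Glyma.03G144500) and did not pass in wild seeds.

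SACPD-C (Glyma.14G121400), a stearoyl-ACP desaturase gene that sets the stearic acid of the seed, stood at 881, 633 and 197 CPM in df12, df17 and df43, against 434, 195 and 245 CPM in df3, df36 and df14. The advanced line df43 was level with df36, and df3 lay above both. In wild seeds SACPD-C rose with glycinin (slope 0.66, SE 0.103, edgeR adjusted p = 0.0289), a call lost without ys1, ys23, ys29 or ys34 (adjusted p by edgeR of 0.111, 0.0877, 0.126 and 0.124). The FAD3 genes, which make linolenic acid, varied little. FAD3A (Glyma.14G194300) had 35.7, 25.5 and 21.4 CPM in the advanced lines, against 23.2, 19.7 and 28.3 CPM in the early lines, and FAD3B (Glyma.02G227200) and FAD3C (Glyma.18G062000) had differences of -0.12 and -0.21. DGAT1A (Glyma.13G106100), which encodes an enzyme of the last step of oil assembly, stood at 20.4, 16.9 and 10.5 CPM in df12, df17 and df43, against 12.2, 7.55 and 7.91 CPM in df3, df36 and df14. KASIIA (Glyma.17G047000), of the step that lengthens palmitic acid, was higher in every advanced line by less than 2-fold, at 59.0, 51.5 and 47.5 CPM against 46.5, 34.8 and 36.5 CPM in the same order of lines. The remaining genes of the list, KASIIB (Glyma.13G112700), FATB1a (Glyma.05G012300), FATB1b (Glyma.17G120400), DGAT1B (Glyma.17G053300), SACPD-A (Glyma.07G207200) and SACPD-B (Glyma.02G138500), had differences between 0.06 and 0.41.

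**Figure D3:**
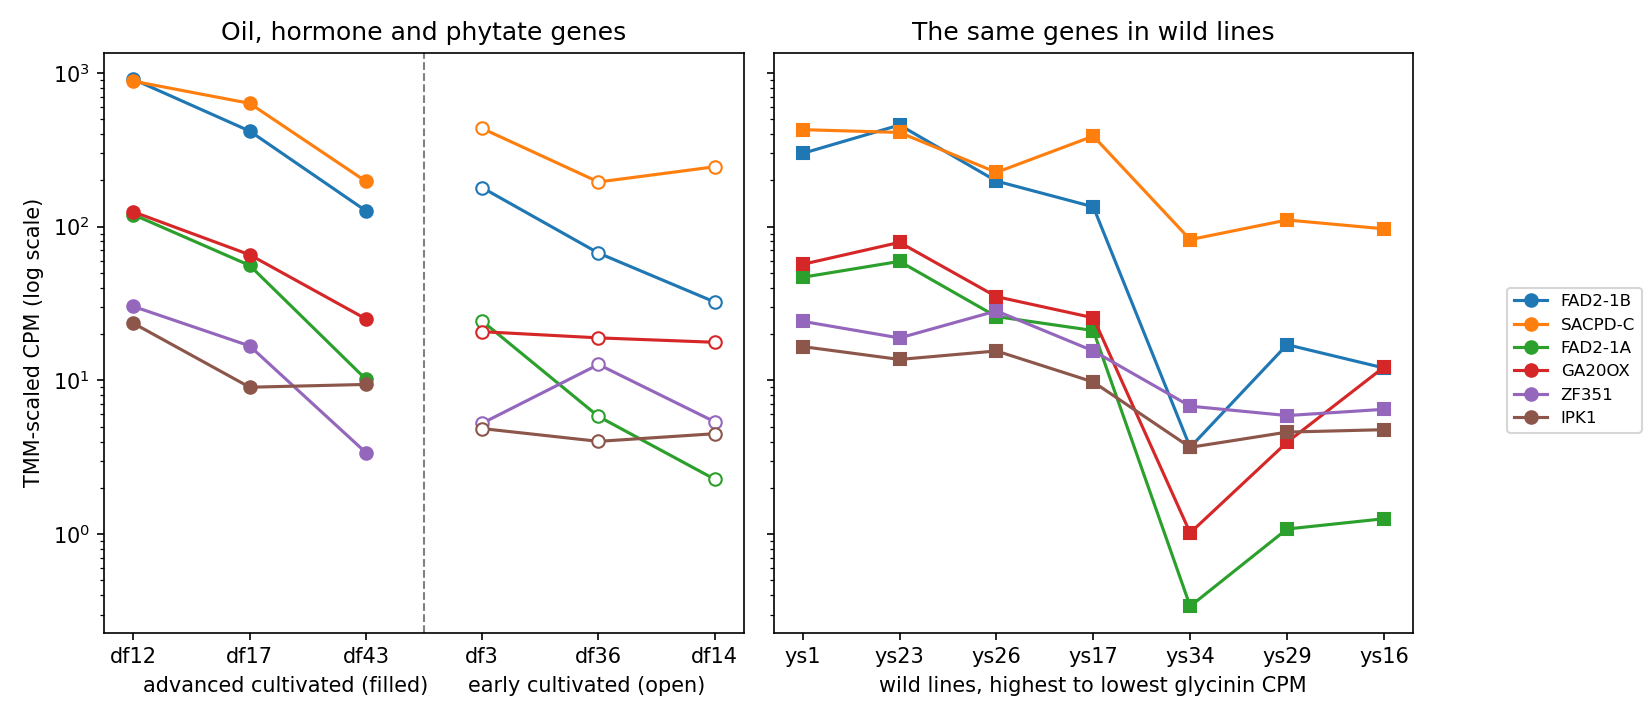
TMM-scaled CPM (log axis) of FAD2-1A, FAD2-1B, SACPD-C, ZF351, GA20OX and IPK1, in cultivated lines on the left (advanced filled, early open) and in wild lines on the right, ordered from highest to lowest glycinin. The FAD2-1 pair and SACPD-C are higher in early df3 than in advanced df43, and in wild seeds each of the 6 genes is lower in all 3 lines of low glycinin than in all 4 of high glycinin.

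Of 10 genes of sugar transport, sucrose and raffinose metabolism and phytate, 1 was higher in every advanced line by at least 2-fold and 0 were lower, beside 1.61% of all genes in each direction. IPK1 (Glyma.14G072200), whose product adds the last phosphate to phytic acid, stood at 23.5, 9.02 and 9.40 CPM in df12, df17 and df43, against 4.86, 4.01 and 4.50 CPM in df3, df36 and df14. The early lines were close together and the fold was 2.79. It also rose with glycinin in wild seeds (slope 0.59, SE 0.0636, edgeR adjusted p = 0.00536), whichever wild line was left out. MIPS1 (Glyma.18G018600), for the first step of inositol synthesis, had 272, 223 and 328 CPM in the advanced lines, against 219, 569 and 631 CPM in the early lines. Early df36 and df14 were high for MIPS1, while early df3 was the lowest line. The phytate transporter genes lpa1-a (Glyma.03G167800) and lpa1-b (Glyma.19G169000) had differences of 0.23 and 0.07.

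The sugar exporter genes of the seed coat overlapped between the classes. SWEET10b (Glyma.08G183500) stood at 652, 863 and 687 CPM in df12, df17 and df43, against 525, 1299 and 523 CPM in df3, df36 and df14, and SWEET10a (Glyma.15G049200) at 125, 191 and 103 CPM against 62.6, 194 and 94.0 CPM in the same order of lines. For both genes df36, an early line, was the highest. SWEET10b rose with glycinin in wild seeds (slope 0.36, SE 0.0688, edgeR adjusted p = 0.0492), a call lost without ys16, ys1, ys23, ys26, ys29 or ys34 (adjusted p by edgeR of 0.0751, 0.184, 0.132, 0.0763, 0.115 and 0.189). It was also lost with limma voom (adjusted p of 0.0505), with the split of the wild lines (0.0977) and with other filters or RLE scaling (0.0509 to 0.0596). The sucrose synthase gene SUS1 (Glyma.13G114000) had 538, 673 and 299.8 CPM in df12, df17 and df43, against 520.1, 499 and 612 CPM in df3, df36 and df14. The raffinose synthase genes RS2 (Glyma.06G179200) and RS3 (Glyma.05G003900) and the stachyose synthase gene STS (Glyma.19G217700) were at or below 13.6 CPM in all 6 lines, with differences of -0.91, -0.13 and -0.34.

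Among 10 genes linked to organ size, 1 was higher in every advanced line by at least 2-fold and 0 were lower, beside 1.61% of all genes in each direction. GA20OX (Glyma.07G081700), for a late step of gibberellin synthesis, stood at 125, 65.6 and 25.1 CPM in df12, df17 and df43, against 20.7, 18.9 and 17.7 CPM in df3, df36 and df14. The early lines were tight and the advanced lines spread widely, with df43 only just above them. Its difference of 1.62 was 2.24 without df43. Its slope in wild seeds, 1.06 (SE 0.241), missed the threshold (edgeR adjusted p = 0.0765), and passed without ys16 (edgeR adjusted p = 0.0188). Leaving out any other single wild line, it missed the threshold (edgeR adjusted p of 0.0827 to 0.262). It also missed with limma voom (adjusted p of 0.0586) and passed with DESeq2 (adjusted p of 7.15e-05). KIX8-1 (Glyma.17G112800), a repressor of organ growth, had 6.95, 9.98 and 7.52 CPM in df12, df17 and df43, against 11.9, 17.7 and 11.3 CPM in df3, df36 and df14. It was lower in every advanced line by less than 2-fold, as was JAG1 (Glyma.20G116200), of leaf and pod shape, at 2.84, 3.47 and 2.95 CPM against 7.77, 4.96 and 4.39 CPM in the same order of lines.

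ST05 (Glyma.05G244100), of seed size and thickness, stood at 226, 114 and 72.2 CPM in df12, df17 and df43, against 53.7, 102 and 88.7 CPM in df3, df36 and df14. It rose with glycinin in wild seeds (slope 0.66, SE 0.123, edgeR adjusted p = 0.0466), a call lost without ys1, ys23, ys26, ys29 or ys34 (adjusted p by edgeR of 0.164, 0.113, 0.073, 0.184 and 0.177) and with the split of the wild lines (0.0936). CYP78A72 (Glyma.19G240800), from a P450 family with a role in organ growth, had 233, 121 and 141 CPM in the advanced lines, against 289, 402 and 115 CPM in the early lines, where df36 was highest and df14 lowest. SSS1 (Glyma.19G196000), POWR1 (Glyma.20G085100), PP2C-1 (Glyma.17G221100), BS1 (Glyma.10G244400) and a further CYP78A gene (Glyma.05G019200) overlapped between the classes, with differences from 0.08 to 0.29.

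Genes of flavonoids and of the seed coat differed between lines within both classes. Of 16 listed genes 14 were tested, and 0 were higher or lower in every advanced line, beside 4.88% of all genes higher and 4.99% lower at any size. CHS7 (Glyma.01G228700), a chalcone synthase gene at the entry to the pathway, stood at 763, 22.7 and 130.1 CPM in df12, df17 and df43, against 82.1, 102 and 96.4 CPM in df3, df36 and df14. CHS8 (Glyma.11G011500) followed it, at 283, 7.14 and 62.9 CPM against 32.3, 47.4 and 44.0 CPM in the same order of lines. The highest and the lowest line were thus both advanced, df12 and df17. EP (Glyma.09G022300), the seed coat peroxidase gene, had 331, 8.10 and 157 CPM in df12, df17 and df43, against 2.59, 99.4 and 1.65 CPM in df3, df36 and df14, so that 3 lines were high and 3 low, across the classes.

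IFS2 (Glyma.13G173500), an isoflavone synthase gene, had 88.0, 6.99 and 5.77 CPM in the advanced lines, against 9.63, 7.59 and 1.55 CPM in the early lines, with df12 far above and df14 below the other 4 lines and a difference of 1.63 on the log2 scale. It rose with glycinin in wild seeds (slope 1.27, SE 0.211, edgeR adjusted p = 0.0338), a call lost without ys16, ys29 or ys34 (adjusted p by edgeR of 0.0565, 0.137 and 0.145), with limma voom (0.124) and with the split of the wild lines (0.0553). ANR1 (Glyma.08G062000) diverts anthocyanidins into the tannins of the seed coat. It stood at 208, 219 and 431 CPM in df12, df17 and df43, against 309, 403 and 508 CPM in df3, df36 and df14. In wild seeds every line of high glycinin held less ANR1 than every line of low glycinin. Its slope of -0.33 missed the threshold (SE 0.0644, edgeR adjusted p = 0.0506). ANS2 (Glyma.11G027700) and ANS3 (Glyma.01G214200), for the step that makes anthocyanidins, had differences of -0.14 and -0.16. DFR1 (Glyma.14G072700) had one of -0.30 and DFR2 (Glyma.17G252200) one of -0.09. Over the 5 seed coat markers (EP, both SWEET10 genes, ANR1 and DFR1), the summed level ranged from 1498 to 1762 CPM in advanced lines and from 1180.4 to 2382 CPM in early lines, and 0 of the 5 parted the classes. Over the 5 embryo regulators (both LEC1 genes, both ABI3 genes and FUS3-1) it ranged from 287 to 579 CPM in advanced lines and from 355 to 508 CPM in early lines, again with 0 of the 5 parting the classes. With KTI3 added as a further embryo marker, the summed level was 7804, 2643 and 1851 CPM in df12, df17 and df43, against 1146, 1497 and 560.2 CPM in df3, df36 and df14, and KTI3 was the 1 of these 6 that parted the classes. No marker was at 0.

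The widest differences in the other direction among the listed genes were those of the 4 LHY genes, which encode a transcription factor of the morning phase of the circadian clock. LHY2b (Glyma.03G261800) stood at 1.06, 1.35 and 0.815 CPM in df12, df17 and df43, against 2.83, 64.2 and 106 CPM in df3, df36 and df14. LHY2a (Glyma.19G260900) had 1.28, 1.06 and 1.25 CPM in the advanced lines, against 1.78, 34.5 and 55.6 CPM in the early lines. LHY1a (Glyma.16G017400) had 9.72, 12.7 and 6.46 CPM in df12, df17 and df43, against 21.7, 77.6 and 121 CPM in df3, df36 and df14. Lines df36 and df14 were high for all 4 genes, LHY1b (Glyma.07G048500) included, while early df3 was far closer to the advanced lines. The differences were -4.54, -3.56, -2.65 and -1.75 on the log2 scale for LHY2b, LHY2a, LHY1a and LHY1b. Their size rested on df36 and df14 together, as LHY2b differed by -1.33 with both left out. Leaving out single early lines also moved it. The difference of LHY2b was -3.56 without df14, -3.92 without df36 and -6.15 without df3, and that of LHY2a was -2.63, -2.97 and -5.07 without the same lines. That of LHY1a was -3.37 without df3. These 4 were the genes that were lower in every advanced line by at least 2-fold among 9 tested clock and maturity genes, beside 1.61% of all genes.

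Genes of the evening phase were low in the same 2 early lines. E2 (Glyma.10G221500), a GIGANTEA homologue that delays flowering, stood at 80.5, 89.6 and 60.7 CPM in df12, df17 and df43, against 102, 14.2 and 31.6 CPM in df3, df36 and df14. PRR3B (Glyma.12G073900), a pseudo-response regulator gene, had 42.8, 46.3 and 57.7 CPM in the advanced lines, against 65.6, 12.5 and 14.4 CPM in the early lines. The evening gene J (Glyma.04G050200) had 15.8, 14.9 and 14.9 CPM in df12, df17 and df43, against 14.1, 5.91 and 7.70 CPM in df3, df36 and df14. For all 3 genes df36 and df14 were the lowest lines. Line df3 was the highest of the 6 for E2 and PRR3B and just under the advanced lines for J, which was the 1 listed clock gene higher in every advanced line, by less than 2-fold. The phytochrome A genes E3 (Glyma.19G224200) and E4 (Glyma.20G090000) had differences of 0.45 and -0.27. E1 (Glyma.06G207800), FT2a (Glyma.16G150700) and FT5a (Glyma.16G044100) had too few counts to be tested, with 0, 2 and 33 counts over the 6 lines.

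In wild seeds the LHY genes did not follow glycinin. LHY2b stood at 0.533, 0.823, 82.6 and 1.07 CPM in ys1, ys23, ys26 and ys17, the lines with high glycinin, against 1.22, 2.16 and 94.0 CPM in ys34, ys29 and ys16, the lines with low glycinin. One line on each side, ys26 and ys16, was high. The slope of LHY2b was -0.21 (SE 0.641, edgeR adjusted p = 0.925) and those of the other LHY genes were -0.18, -0.22 and -0.25, none past the threshold. All 4 slopes turned positive without ys16, at 1.31 for LHY2b, 0.74 for LHY2a, 0.54 for LHY1a and 0.46 for LHY1b, still short of the threshold (edgeR adjusted p of 0.466, 0.562, 0.572 and 0.492).

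The LHY genes thus moved with the classes in cultivated lines through df36 and df14, and their part in the other differences was not tested. With df36 and df14 left out, which was decided on once the values were known, the 3 advanced lines were set against df3 alone. By the rule that chose them, df3 lies below every advanced line in all 507 higher genes and above them in all 507 lower genes, so only the size of the difference could change. It still reached 2-fold for 344 of the 507 higher genes and for 316 of the 507 lower genes. All 8 seed protein genes, OLEO1, IPK1 and GA20OX were among these 344, with differences of 1.36 for IPK1 and 1.51 for GA20OX. Of the 4 LHY genes 2 still differed by at least 2-fold, LHY2b at -1.33 and LHY1a at -1.21, beside -0.86 for LHY1b and -0.53 for LHY2a. In all, 1582 genes were higher and 1333 lower by this rule against df3, a single line.

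**Figure D4:**
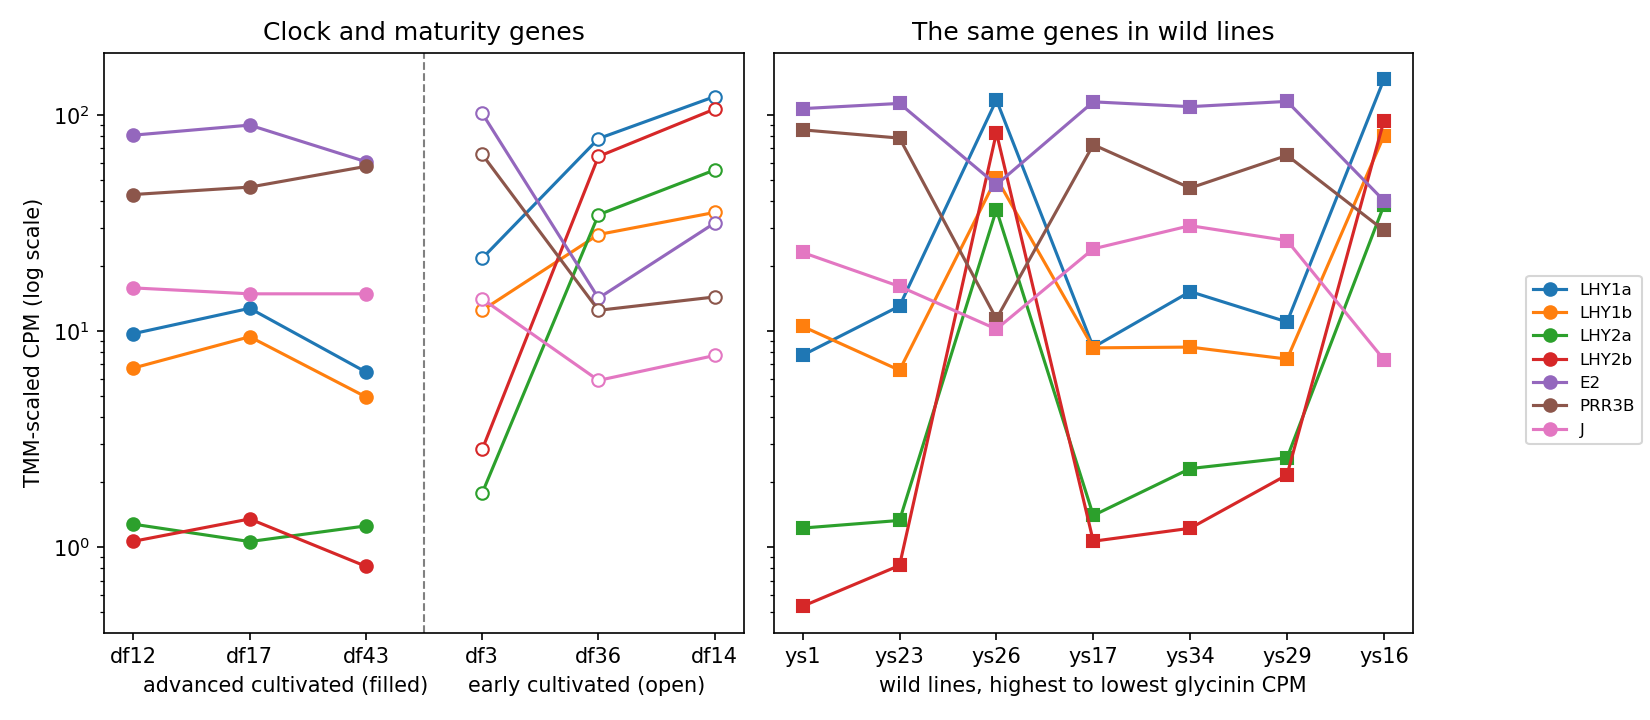
TMM-scaled CPM (log axis) of 4 LHY genes and of E2, PRR3B and J in cultivated lines on the left (advanced filled, early open) and in wild lines on the right, ordered from highest to lowest glycinin. The LHY genes peak and the other 3 genes dip in early df36 and df14, and in wild ys26 and ys16, one a line of high and the other a line of low glycinin.

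The 6 reference genes that are often used to scale soybean measurements included 0 of 6 that were higher or lower in every advanced line, beside 4.88% of all genes higher and 4.99% lower at any size, with differences from -0.21 to 0.19 on the log2 scale. ACT11 (Glyma.18G290800), an actin gene, stood at 143, 187 and 117 CPM in df12, df17 and df43, against 128, 145 and 114 CPM in df3, df36 and df14. ELF1B (Glyma.02G276600), an elongation factor gene, had 150.1, 106 and 113 CPM in df12, df17 and df43, against 91.9, 242 and 125 CPM in df3, df36 and df14, with df36 the highest line. None of the 6 passed the slope test in wild seeds.

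**Figure D5:**
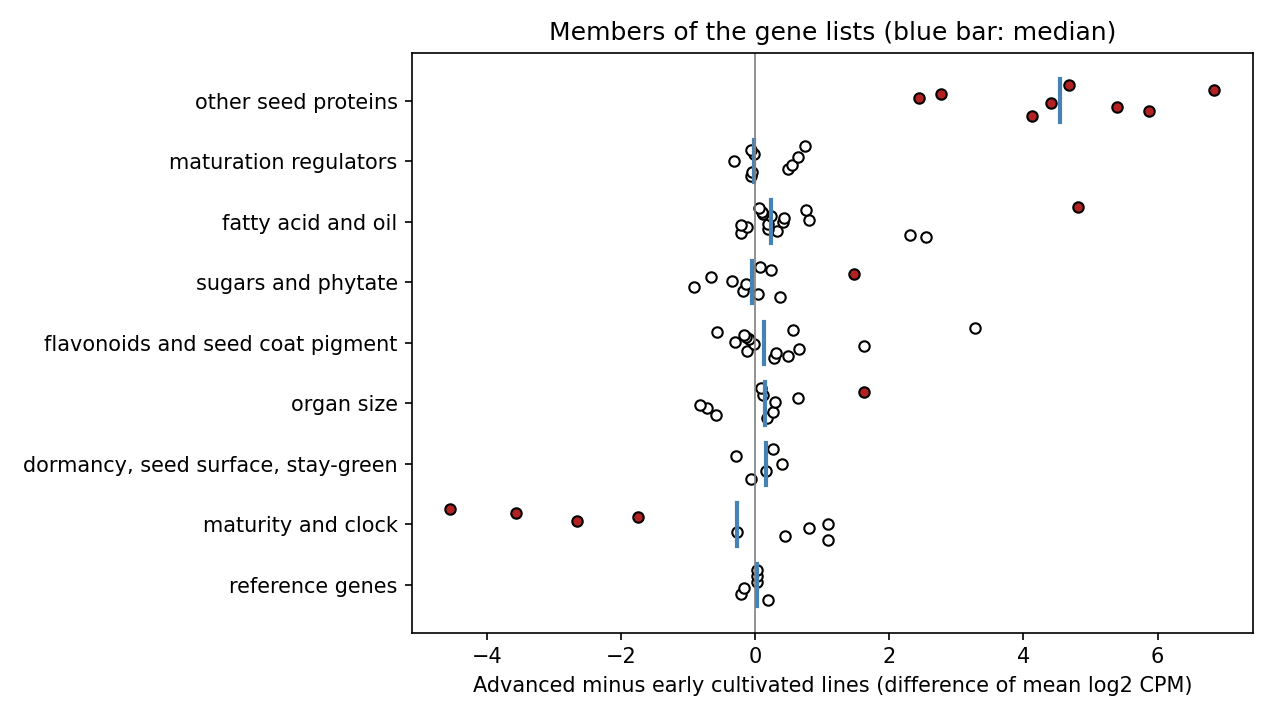
Difference of mean log2 CPM, advanced minus early cultivated lines, for each tested gene of 9 lists, with the median as a blue bar; filled points are genes whose classes do not overlap and differ by at least 2-fold. The 8 seed protein genes lie at 2.45 or above, the 4 LHY genes at -1.75 or below, and the reference genes between -0.21 and 0.19.

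Outside the lists, 37 genes were higher in every advanced line by at least 2-fold, reached 50 mean CPM in them and rose with glycinin in wild seeds. In the other direction 1 gene met the same rule. Without the limit of 50 mean CPM and with list members, the shared genes were 90 higher and 7 lower of 31410 tested. How many unlisted genes reach 50 mean CPM was not counted, so 37 and 1 have no share beside them and are no result on direction. The 2 of the 37 with the largest difference and the 1 in the other direction are given. No product is named, as nothing pairs their identifiers with a name. Glyma.14G117700 stood at 621, 51.2 and 8.28 CPM in df12, df17 and df43, against 5.26, 0.604 and 0.207 CPM in df3, df36 and df14. Its wild slope was 2.53 (SE 0.309, edgeR adjusted p = 0.0117), a call lost without ys29 or ys34 (adjusted p by edgeR of 0.0703 and 0.0554) and with limma voom (0.0825). Its difference of 5.91 was 4.28 without df12, 5.04 without df14, 7.08 without df3 and 7.38 without df43. Glyma.05G198000 had 509, 50.9 and 119 CPM in the advanced lines, against 1.21, 4.27 and 4.14 CPM in the early lines, and a wild slope of 2.26 (SE 0.229, edgeR adjusted p = 0.00381). All its early lines were under 5 CPM, and its call held whichever wild line was left out. Its difference of 5.64 was 4.74 without df12 and 6.40 without df17. The 1 gene in the other direction, Glyma.20G134200, stood at 85.9, 320.3 and 38.0 CPM in df12, df17 and df43, against 573, 461 and 543 CPM in df3, df36 and df14. Its early lines were close together, and its wild slope was -0.57 (SE 0.103, edgeR adjusted p = 0.0433). That call was lost without ys17, ys1, ys23, ys29 or ys34 (adjusted p by edgeR of 0.0548, 0.168, 0.133, 0.155 and 0.152) and with the split of the wild lines (0.0539). Its difference of -2.37 was -3.19 without df17 and -1.66 without df43.

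No gene was shown to relate to glycinin differently in cultivated and wild seeds. The difference of the 2 slopes was tested in one edgeR fit over the 13 lines, and 0 of 31410 genes (0%) passed after adjustment, with a lowest adjusted p of 0.502. By edgeR 1151 of the 31410 genes had an unadjusted p under 0.05, fewer than this threshold would pass by chance. DESeq2 called 7 genes after adjustment. The 1151 genes became 1868 without df14, 669 without df36, 2080 without ys16 and 718 without ys34. The difference between cultivated and wild lines in how the LHY genes lay relative to glycinin was likewise not past the threshold (edgeR adjusted p of 0.981 for LHY2b).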

How the data were processed

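Total RNA of seeds was made into libraries with a stranded mRNA kit, per the labels' protocols. The submitters' processing notes list edgeR, SAMtools, TopHat2 and Trim Galore 0.3.3 and give no roles. No source used here gives the counting tool, genome build or annotation. The authors deposited raw counts for 43517 features in whole numbers, 1 column per line, not normalized as far as the values show.

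The lists and the split were chosen with earlier results of these data known. Genes were kept by edgeR's expression filter over the 13 lines (31420 genes, 10 of them globulins, which left 31410) and scaled by TMM. Log2 CPM used a prior count of 2. Advanced and early lines were compared without a test: a gene counted as higher or lower when the lines did not overlap in CPM and mean log2 CPM differed by at least 1. In wild lines each gene was fitted on log10(CPM + 1) of Glyma.03G163500 by quasi-likelihood F-test (edgeR 4.0.16, R 4.3.3), with Benjamini-Hochberg adjustment over all genes at 0.05. An interaction term over 13 lines tested the difference between cultivated and wild slopes. The fits were also run on simulated counts with the same dispersion for every gene. That setting does not copy the spread between these lines, so no conclusion on the tests is drawn from it.

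Named genes were the list members that parted the classes by at least 2-fold, or else the most abundant member of a list, the members of the size, sugar, regulator and oil lists with at least 10 mean CPM, and up to 2 unlisted genes per direction with at least 50 mean CPM in the higher class that also passed in wild lines. Others were added after their values were seen. Alternatives were RLE and no scaling, other filters, DESeq2 1.42.0, limma 3.58.1 voom, a split of wild lines at 300 CPM and leaving out each line. Pairs of cultivated libraries were checked for duplicates by chi-square over genes of 20 counts or more. The most alike pair, df17 and df3, reached 38.0 per degree of freedom, and each line was kept.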

Additional observations from a re-analysis of the deposited data

Results flagged for a closer look

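For every tested gene of the lists and the 3 unlisted genes, the 6 cultivated and the 7 wild lines were searched on the log2 scale for a line outside Dixon's 95% limit. Of 182 such groups 6 held one, or 3.3%, where chance flags about 5%. In cultivated seeds advanced df43 was low for FAD3C, at 27.2 CPM with a gap of 0.631 of the range to the next line. The same line was low for SUS1, at 299.8 CPM with a gap of 0.630. Early df3 was low for FATB1b, at 14.2 CPM with a gap of 0.700. In wild seeds ys29 was low for CHS7, at 170.7 CPM with a gap of 0.789, and for CHS8, at 87.6 CPM with a gap of 0.593. Wild ys34 was low for the stay-green gene D2, at 0.476 CPM with a gap of 0.608.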

How the results depend on the processing

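Under RLE scaling and with no filter on low counts the cultivated counts and the wild counts of called genes stayed within 1.5 times of the reported ones, and so did the cultivated counts with no scaling factor. The shared genes were not recounted under these settings. Without the filter 1796 genes had an unadjusted p under 0.05 for the slope difference, against 1151 with it. The other settings moved counts. A minimum mean of 5 CPM left 233 higher and 206 lower genes in the cultivated comparison, as fewer genes were counted, and dropping the minimum difference gave 1532 higher (4.88%) and 1568 lower (4.99%) genes. Without df14 and df36, chosen after the data were seen, there were 1582 and 1333, with 130 and 19 of them also passing in wild lines. Leaving out one cultivated line gave 511 to 1262 higher and 596 to 1352 lower genes. In wild lines DESeq2 called 1396 rising and 660 falling genes, limma voom 213 and 35, and a split of the lines at 300 CPM 209 and 29. Leaving out one wild line gave 70 to 641 rising and 4 to 208 falling genes. The shared genes were 202 higher and 60 lower with DESeq2, 64 and 2 with the split, and 36 to 199 and 0 to 34 when one line was left out. The slope difference between cultivated and wild lines was called for 0 genes in each of 13 fits with one line left out and for 7 with DESeq2. The wild slopes of the LHY genes ranged over leaving out one line from -1.91 to 1.31 for Glyma.03G261800, -1.20 to 0.74 for Glyma.19G260900, -0.88 to 0.54 for Glyma.16G017400 and -0.65 to 0.46 for Glyma.07G048500. For these shifts between tools and lines the cause was not tested. No paired analysis was possible because the labels give no replicate numbers and every sample is a different line. Depth limits LOX1, whose early values lie near 3 counts, and OLEO1 in early df3 and df14, which lie at or below 3 counts.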

Other observations

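Genes of dormancy, seed surface and stay-green traits were measured in the same seeds, and 0 of 5 parted the classes, beside 4.88% of all genes higher and 4.99% lower in every advanced line at any size. G (Glyma.01G198500), a dormancy gene, stood at 13.6, 12.6 and 8.78 CPM in advanced df12, df17 and df43, against 10.8, 8.58 and 11.3 CPM in early df3, df36 and df14. B1 (Glyma.13G241700), of the powdery seed bloom, had 11.8, 9.21 and 10.8 CPM in the advanced lines, against 10.3, 7.85 and 6.31 CPM in the early lines. HS1-1 (Glyma.02G269500), of hard-seededness, had 2.84, 1.64 and 5.14 CPM in df12, df17 and df43, against 2.91, 3.06 and 3.05 CPM in df3, df36 and df14, with df43 the highest line. The stay-green genes D1 (Glyma.01G214600) and D2 (Glyma.11G027400) had differences of -0.28 and 0.27 on the log2 scale. G rose with glycinin in wild seeds (slope 0.36, SE 0.0695, edgeR adjusted p = 0.0493). That call was lost whichever wild line was left out, with edgeR adjusted p of 0.0518 to 0.186, and with limma voom (adjusted p of 0.0679). It was also lost with other filters or RLE scaling (edgeR adjusted p of 0.0509 to 0.0564).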
